A study of Xenopus laevis with 8 samples.

Results

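The genes described here are direct transcriptional targets of bone morphogenetic protein (BMP) signalling: the *id* genes, *msx1* and *msx2*, and the feedback inhibitors *bambi*, *smad6* and *smad7*. They were taken by name, as every probe set whose gene symbol, without the ending that marks the homoeologous copy, is *id1*, *id2*, *id3*, *id4*, *bambi*, *smad6*, *smad7*, *msx1* or *msx2*. This gave 16 probe sets of 8 genes among the 15491 probe sets of the array. *id1* was not analysed here, and 1 probe set that lists both homoeologs of *bambi* was left out because its signal cannot be given to either. *Xenopus laevis* is an allotetraploid in which the endings .L and .S name the copies of a gene, so each probe set is described on its own, and a probe set may also bind RNA of the other copy. The values are intensities of hybridised RNA, so the level of one probe set cannot be set against that of another.

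BMPs are secreted ligands of the TGF-β superfamily. They bind receptor serine/threonine kinases, which phosphorylate Smad1 and its close relatives, and these enter the nucleus with Smad4 and switch on target genes. In the frog ectoderm high BMP signalling goes with epidermis and blocked signalling with neural plate, while the neural plate border forms between them. The targets described here are widely used as readouts of the pathway. Several of them inhibit it in turn and so form its negative feedback.

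RNA came from animal caps, the pluripotent ectoderm at the top of the blastula. Embryos were injected at the 2-cell stage, caps were cut at stage 9 and kept in culture until control embryos would be at stage 15, and 1 Affymetrix *X. laevis* array was used for each RNA. The EFTF caps carried RNA for 7 eye field transcription factors, *otx2*, *pax6*, *rax*, *six3*, *six6*, *tbx3* and *nr2e1*, while the control caps are named GFP in the labels. By the methods of the study, both groups were also injected with RNA for the fluorescent protein Venus YFP, and the embryos carried a *venus YFP* transgene as well. Each array held a pool of caps, so the values are averages over all cells of the caps, and fewer cells that express a gene cannot be told apart from less of its RNA in each cell.

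There were 4 EFTF and 4 GFP arrays, numbered 1 to 4 in each group and described in the series as biological replicates. Median log2 intensities were 4.07 to 4.24, and a background limit, set by control probes for which the frog has no RNA, was 2.90 to 3.18. GFP replicate 1 is titled GFP but its source label says EFTF. On this array *otx2.L* and *six6.L*, which are among the injected factors, read 6.30 and 4.68. On the lowest EFTF array they read 9.21 and 7.54, so the title was used. The study states that its *otx2* probe set does not bind the injected RNA, so the *otx2.L* reading may be of the endogenous gene. EFTF replicate 1 correlated more closely with the GFP arrays (mean r = 0.970 across probe sets) than with the other EFTF arrays (mean r = 0.960), and *six6.L* was lowest on it among the EFTF arrays. Counts and medians of the BMP response probe sets are therefore also given without EFTF replicate 1, and without GFP replicate 4, on which many of them stood high. For single probe sets mostly the change without GFP replicate 4 is given.

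None of the 16 BMP response probe sets passed the test between EFTF and GFP caps (limma, Benjamini-Hochberg adjusted p under 0.05 over all 15491 probe sets), where 1.42% of all probe sets passed. The lowest adjusted p was 0.155, for *msx1.L*. At an unadjusted p under 0.05, 3 of the 16 passed, *msx1.L* and *id2.S* lower and *id4.S* higher in EFTF caps, against 17.3% of all probe sets. Means were lower in EFTF caps for 14 of the 16, against 45.9% of all probe sets, and the median log2 change was -0.45 against 0.02 over all probe sets. The mean was at least 2-fold lower for 4 of the 16, against 3.84% of all. The median SE was 0.32 for the 16 and 0.18 over all probe sets, so spread alone crosses a 2-fold limit more readily among the 16. They belong to 8 genes and are not independent. The groups did not overlap for 1 of the 16, *msx1.L*, against 10.2% of all probe sets in either direction. The samples share replicate numbers, and with these as a block 0 of the 16 passed, against 10.2% of all probe sets, and 6 of the 16 had an unadjusted p under 0.05, against 28.1% of all. An unpaired equal-variance test called 0 of the 16 but only 2 of all 15491 probe sets, so this 0 says nothing particular to the 16.

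**Figure D1:**
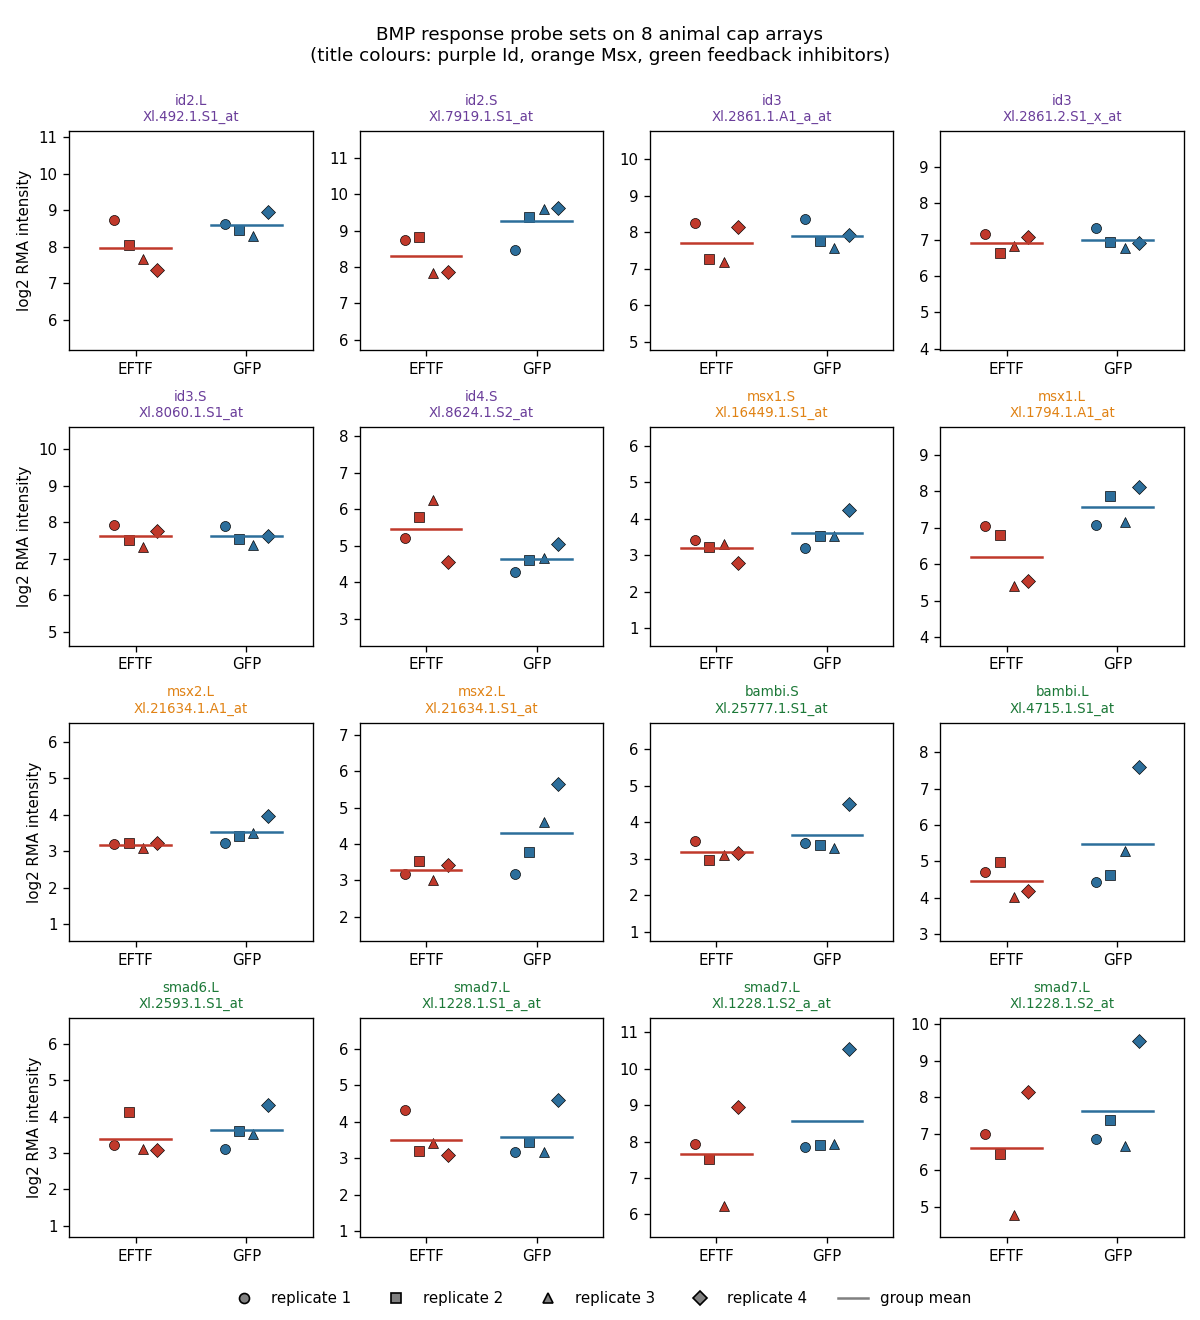
Log2 RMA intensity (y axis, the same span of units in every panel) of each of the 16 BMP response probe sets on the 4 EFTF and 4 GFP arrays. Symbols mark the replicate number and lines the group means. In the feedback inhibitors GFP replicate 4 stands above the other GFP arrays, and the *id3* panels show groups lying on top of each other.

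The Id proteins are helix-loop-helix factors with no DNA-binding region that capture the partners of proneural and myogenic factors and so hold back differentiation. *id2.L* read 8.75, 8.06, 7.68 and 7.37 on EFTF replicates 1 to 4 and 8.63, 8.47, 8.29 and 8.97 on GFP replicates 1 to 4. EFTF replicate 1 lay inside the GFP range and the other EFTF arrays lay below it. The log2 change was -0.63 ± 0.29 (SE, 95% interval -1.30 to 0.04, limma adjusted p = 0.321). Without EFTF replicate 1 it was -0.89, with a limma adjusted p of 0.0671, the lowest that any BMP response probe set reached under any setting.

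Its homoeolog *id2.S* read 8.73, 8.82, 7.85 and 7.87 in EFTF caps and 8.48, 9.36, 9.60 and 9.61 in GFP caps. Apart from GFP replicate 1, every GFP array was above every EFTF array. The EFTF mean was 8.31 ± 0.53 and the GFP mean 9.26 ± 0.53 (SD over 4 arrays each), a change of -0.95 ± 0.33 (SE, 95% interval -1.71 to -0.19, limma adjusted p = 0.192). The 2 copies of *id2* thus had lower means in EFTF caps in replicates 2, 3 and 4, by -0.42, -0.62 and -1.59 for *id2.L* and by -0.54, -1.75 and -1.74 for *id2.S*. In replicate 1 both were slightly higher, by 0.12 and 0.25.

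*id3* was read by 3 probe sets, and none showed a difference near the spread of the arrays. The probe set of *id3.S* read 7.93, 7.52, 7.31 and 7.77 in EFTF caps and 7.90, 7.54, 7.38 and 7.62 in GFP caps. Each EFTF array was within 0.15 of the GFP array of the same number. The change was 0.02 ± 0.17 (SE, 95% interval -0.37 to 0.41), an interval that did not reach a 2-fold difference in either direction. The sign of the change turned when array medians were made equal. The other probe sets carry the symbol *id3* with no copy ending. The probe set ending in A1_a_at changed by -0.19 ± 0.29 (SE, 95% interval -0.86 to 0.48) and the one ending in S1_x_at by -0.06 ± 0.17 (SE, 95% interval -0.44 to 0.32). The letter x marks a probe set that shares probes with other transcripts.

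*id4.S* was the one Id probe set with a clearly higher mean in EFTF caps. It read 5.22, 5.79, 6.26 and 4.56 in EFTF and 4.27, 4.60, 4.68 and 5.05 in GFP caps. EFTF replicates 1 to 3 were above all GFP arrays, and replicate 4 ran the other way, since EFTF replicate 4 was the lowest of its group and GFP replicate 4 the highest of its own. The change was 0.81 ± 0.35 (SE, 95% interval 0.00 to 1.61, limma adjusted p = 0.287). Within replicates it was 0.96, 1.19, 1.58 and -0.49. Across the 6 Id probe sets, 4 had lower and 2 had higher means in EFTF caps, with a median change of -0.12.

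Msx1 and Msx2 are homeobox repressors of the ventral and border ectoderm. *msx1.L* had the largest difference of the 16 probe sets. It read 7.06, 6.80, 5.41 and 5.53 in EFTF caps and 7.08, 7.87, 7.17 and 8.13 in GFP caps. The groups did not overlap, but EFTF replicate 1 and GFP replicate 1 were almost level, and the gap was wide only in the other replicates. The mean was 2.57-fold lower in EFTF caps, a log2 change of -1.36 ± 0.43 (SE, 95% interval -2.36 to -0.37, limma adjusted p = 0.155). The adjusted p was 0.0860 with the replicate block, 0.0716 without EFTF replicate 1 and 0.237 without GFP replicate 4.

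*msx2.L* was read by a pair of probe sets. The one ending in S1_at gave 3.18, 3.52, 3.01 and 3.43 in EFTF caps and 3.19, 3.78, 4.61 and 5.65 in GFP caps. All EFTF arrays lay close to the background limit, and the GFP arrays ran from that level to well above it. The change was -1.02 ± 0.47 (SE, limma adjusted p = 0.321), and -0.57 without GFP replicate 4. The one ending in A1_at stayed between 3.09 and 3.23 on the EFTF arrays and read 3.23, 3.41, 3.50 and 3.96 in GFP caps, in the same order of replicates as the other probe set. Its change was -0.35 ± 0.16 (SE, limma adjusted p = 0.315), and -0.20 without GFP replicate 4.

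*msx1.S* read 3.42, 3.23, 3.32 and 2.79 in EFTF and 3.19, 3.52, 3.53 and 4.25 in GFP caps, with EFTF replicate 4 under the background limit. Its change was -0.43 ± 0.24 (SE, limma adjusted p = 0.421), and -0.22 without GFP replicate 4. RMA can draw low values together, so the fold changes of such dim probe sets may be understated, which was not tested. All 4 Msx probe sets had lower means in EFTF caps, and in each of them GFP replicate 4 was the highest GFP array.

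BAMBI is a receptor-like membrane protein that lacks the kinase part and so blocks BMP receptors from pairing. *bambi.L* read 4.72, 4.97, 4.03 and 4.18 in EFTF caps and 4.45, 4.63, 5.29 and 7.59 in GFP caps. GFP replicate 4 was 2.30 above the next GFP array, while GFP replicates 1 and 2 were inside the EFTF range. The mean was 2.02-fold lower in EFTF caps, a change of -1.02 ± 0.65 (SE, 95% interval -2.51 to 0.47, limma adjusted p = 0.506). Without GFP replicate 4 the change was -0.32. *bambi.S* read 3.47, 2.96, 3.098 and 3.16 in EFTF and 3.42, 3.36, 3.29 and 4.50 in GFP caps. Again GFP replicate 4 was alone above the rest, and the change went from -0.47 ± 0.27 (SE, limma adjusted p = 0.452) to -0.18 without it.

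Smad6 and Smad7 are inhibitory Smads that occupy the activated receptors, Smad7 also those of the TGF-β and activin branch. *smad7.L* was read by 3 probe sets. The one ending in S2_a_at gave 7.94, 7.51, 6.24 and 8.96 in EFTF caps and 7.85, 7.90, 7.93 and 10.53 in GFP caps. Replicate 4 was the highest array of both groups, GFP replicates 1 to 3 lay between 7.85 and 7.93, and EFTF replicate 3 was the lowest of all. The change was -0.89 ± 0.74 (SE, 95% interval -2.60 to 0.81, limma adjusted p = 0.633), and -0.23 without GFP replicate 4. That fit kept the high EFTF replicate 4 array, and with replicates 1 to 3 only the change was -0.67.

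The one ending in S2_at, which was designed from the same sequence and is no independent measurement, gave 7.002, 6.45, 4.78 and 8.14 in EFTF and 6.85, 7.37, 6.67 and 9.55 in GFP caps. Replicate 4 was again the highest array of both groups and EFTF replicate 3 the lowest of all. The change was -1.02 ± 0.83 (SE, limma adjusted p = 0.623), -0.37 without GFP replicate 4 and -0.88 with replicates 1 to 3 only. With the replicate block, over all arrays, the SE of the S2_a_at and S2_at changes fell to 0.33 and 0.32. The block takes up the shared height of replicate 4. The limma adjusted p fell to 0.142 and 0.106. The third, ending in S1_a_at, was dim. It read 4.33, 3.21, 3.41 and 3.096 in EFTF and 3.17, 3.45, 3.16 and 4.58 in GFP caps, with 1 high array in each group, and changed by -0.08 ± 0.38 (SE, limma adjusted p = 0.949), or by 0.25 without GFP replicate 4.

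*smad6.L* read 3.23, 4.11, 3.12 and 3.09 in EFTF and 3.12, 3.61, 3.52 and 4.303 in GFP caps. The groups overlapped almost fully and the change was -0.25 ± 0.31 (SE, 95% interval -0.95 to 0.45, limma adjusted p = 0.771), or -0.03 without GFP replicate 4. All 6 probe sets of the feedback inhibitors had lower means in EFTF caps, with a median change of -0.68, and GFP replicate 4 was the highest GFP array in all 6. Without GFP replicate 4 the median was -0.21 and 5 of the 6 had lower means.

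**Figure D2:**
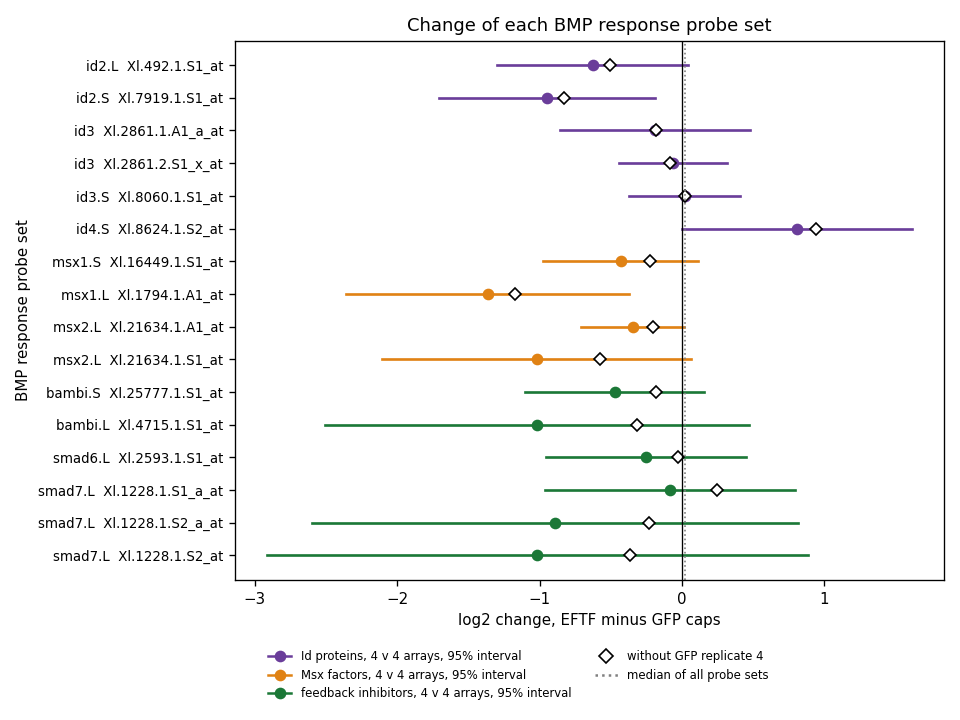
Log2 change between EFTF and GFP caps (x axis) for each BMP response probe set, as the limma estimate from 4 arrays a group with its 95% interval (filled circles and lines) and as the estimate without GFP replicate 4 (open diamonds). The dotted line is the median of all probe sets, 0.02. Leaving out GFP replicate 4 draws *bambi.L* from -1.02 to -0.32 and leaves *msx1.L* at -1.17 and *id4.S* at 0.94.

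The size of the difference depended on which arrays were set side by side. Within replicate 1 the median difference of the 16 probe sets, EFTF minus GFP, was 0.10, and 5 of the 16 were lower in EFTF caps, none of them a feedback inhibitor. The median was -0.30 in replicate 2, -0.41 in replicate 3 and -1.43 in replicate 4, with 13 of the 16 lower in each. Over all probe sets the corresponding medians were -0.03, 0.02, 0.05 and 0.04. The neural plate markers, which the EFTF caps had at higher levels, differed by a median of 0.24 in replicate 1. In replicates 2, 3 and 4 they differed by 1.71, 2.75 and 2.34. Epidermis markers differed by medians of -0.04, -0.29, -0.74 and -0.55 in replicates 1 to 4. Other lists differed in replicate 1 as well, the cement gland markers by 2.31, 2.38, 4.18 and 2.80 in replicates 1 to 4. For ionocyte markers the medians were -1.26, -1.84, -4.61 and -3.08. The part of the replicate 1 arrays in these results was not tested.

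Among the EFTF arrays, replicate 1 was the highest in 8 of the 16 probe sets, against 24.2% of all probe sets, and replicate 3 was the lowest in 9, against 19.8%. Leaving out EFTF replicate 1 gave 15 lower means and a median change of -0.54. By role the medians were then -0.25 for the Id, -0.75 for the Msx and -0.78 for the feedback inhibitor probe sets. Leaving out GFP replicate 4 gave 13 lower means, against 47% of all probe sets, and a median of -0.21. In the same order of roles the medians were then -0.13, -0.40 and -0.21. The count of means at least 2-fold lower went from 4 to 1 without GFP replicate 4, against 4.27% of all probe sets, and likewise to 1 without EFTF replicate 3. It was 0 with replicates 1 to 3 only, where *msx1.L* differed by -0.95, and 6 without GFP replicate 1. The probe set that stayed without GFP replicate 4 was *msx1.L*.

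**Figure D3:**
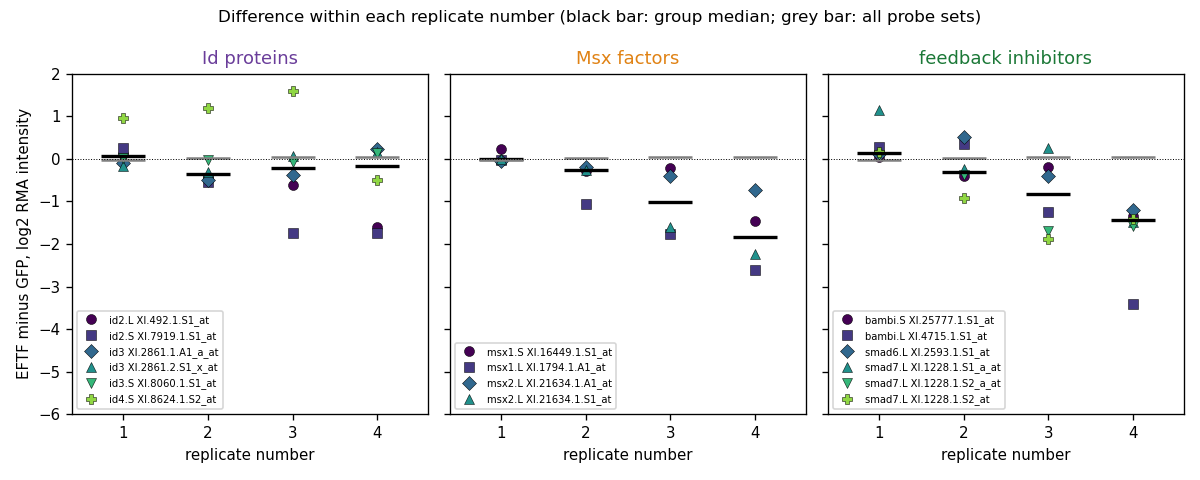
Difference in log2 RMA intensity between the EFTF and the GFP array of each replicate number (x axis), with 1 symbol for each probe set, in 3 panels by role. Black bars are medians of the panel and grey bars medians of all probe sets. Replicate 1 lies near 0 in all panels apart from *id4.S* and 1 probe set of *smad7.L*, and in replicate 4 all Msx and feedback inhibitor probe sets lie below 0.

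GFP replicate 4 was the highest GFP array in 13 of the 16 probe sets, against 30.0% of all. It exceeded the next GFP array by at least 1 log2 unit in 6 of the 16, or 37.5%, against 2.05% of all probe sets. By role these were 5 of the 6 probe sets of the feedback inhibitors, 1 of the 4 of the Msx factors and 0 of the 6 of the Id proteins. The 5 belong to *bambi* and *smad7* only. Among them, the *smad7.L* probe sets ending in S2_a_at and S2_at were designed from the same sequence, so the 5 are not independent. The summed linear intensity of the 16 probe sets was 1146 to 2185 on the EFTF arrays and 2057 to 4727 on the GFP arrays, with the highest value on GFP replicate 4. Such a sum rests mainly on the probe sets with high readings. On GFP replicate 4 the highest were *smad7.L* S2_a_at and S2_at, at 10.53 and 9.55, and *id2.S* and *id2.L*, at 9.61 and 8.97. The BMP response probe sets were all above the background limit on this array. GFP replicate 4 also stood high in the wider list of 30 probe sets of BMP-dependent ectoderm genes described below. It was the highest GFP array in 21 of them, and exceeded the next by at least 1 log2 unit in 8, or 26.7%.

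Of 53 probe sets of other pathway genes, 26 were highest among the GFP arrays on replicate 4 and 7, or 13.2%, exceeded the next GFP array by at least 1 log2 unit. Others, such as *sfrp2.S* and *rgma.L*, were lowest there. The high ones described next were chosen after their values were seen, apart from *szl.L*. *bmp4.S*, the ligand that drives ventral and epidermal fate, read 4.36, 4.90, 5.30 and 8.10 in GFP caps and 6.01, 6.69, 6.01 and 7.66 in EFTF caps. It was higher in EFTF caps in replicates 1 to 3 and high in both replicate 4 arrays, with a change of 0.93 ± 0.79 (SE, limma adjusted p = 0.640). Without GFP replicate 4, and with the high EFTF replicate 4 array kept, the change was 1.74 (limma adjusted p = 0.116). Within replicates 1 to 4 *bmp4.S* differed by 1.65, 1.79, 0.71 and -0.44. The related ligand *bmp7.2.L* read 7.94 on GFP replicate 4 and 8.19 on EFTF replicate 4 and no more than 4.81 elsewhere, which set replicate 4 apart in both groups alike.

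Sizzled, the product of *szl*, is a secreted inhibitor of the proteases that degrade Chordin, and is itself a BMP target. *szl.L* read 3.85, 3.81, 2.77 and 5.33 in EFTF and 3.12, 3.89, 4.80 and 8.68 in GFP caps, a change of -1.18 ± 1.15 (SE, limma adjusted p = 0.695). GFP replicate 4 was thus above all other arrays, and without it the change was 0.00. EFTF replicate 4, the highest EFTF array, was kept there, and with replicates 1 to 3 only the change was -0.46. *tll1.S*, a protease of that kind, reached 7.14 on GFP replicate 4 against 3.69 to 4.67 on the other GFP arrays. *bmper.L*, a secreted modulator of BMPs, reached 6.81 there against 3.56 to 4.55. Markers of mesoderm and endoderm were near background on GFP replicate 4, with 9 of 11 and 8 of 11 probe sets at or under the limit and the highest reading 3.75 and 3.87. Of 18 epidermis probe sets 6, or 33.3%, were highest among the GFP arrays on replicate 4, against 30.0% of all probe sets. Their summed linear intensity there was 32150, near the low end of the 31897 to 36028 of the GFP arrays, a range that includes this array. The epidermal cadherin *cdh1.S*, picked from this list after its values were seen, was low on both replicate 4 arrays. It read 3.76 there in EFTF and 4.45 in GFP caps. What sets replicate 4 apart was not tested.

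**Figure D4:**
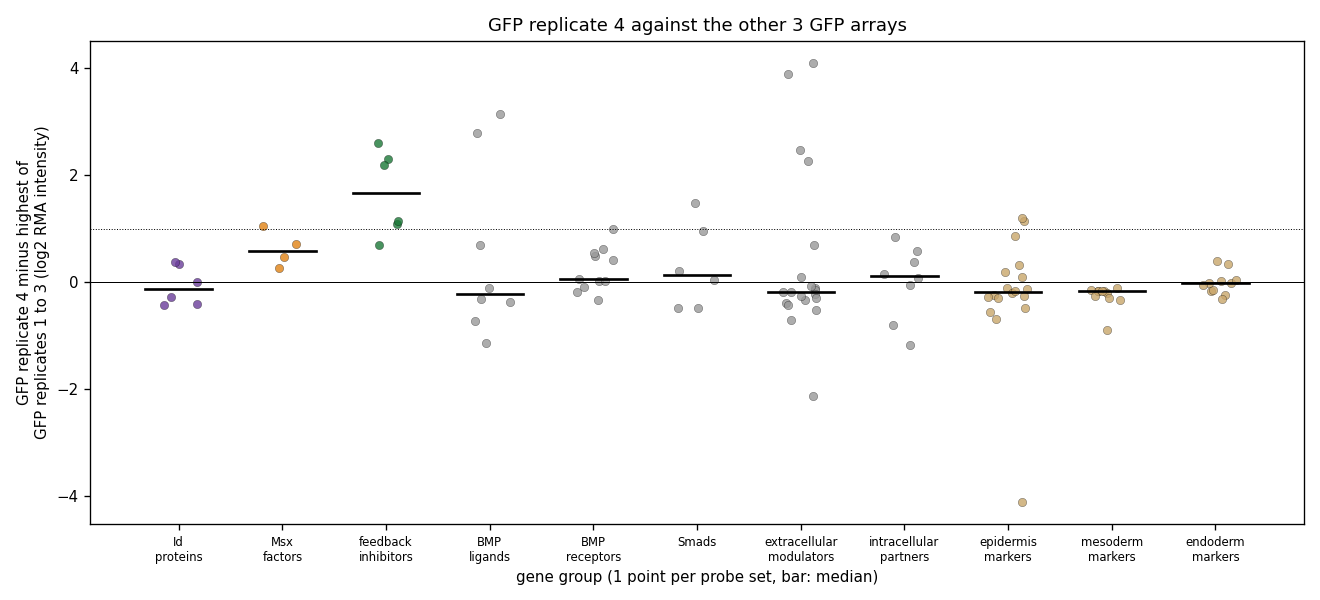
Log2 RMA intensity on GFP replicate 4 minus the highest of GFP replicates 1 to 3 (y axis), with 1 point for each probe set and bars for medians, by gene group (x axis). The dotted line marks a difference of 1. Of the feedback inhibitors 5 of 6 lie above it, of the BMP receptors 0 of 11, and of the mesoderm and endoderm markers none. The wider list of BMP-dependent ectoderm genes is not drawn, and 8 of its 30 probe sets differed by at least 1.

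The rest of the pathway was examined as a list of 53 probe sets of 35 genes. None passed the test, against 1.42% of all probe sets, and 2 had an unadjusted p under 0.05, against 17.3% of all. The median change was 0.03. The ligands, receptors and extracellular modulators had medians of 0.02, 0.06 and -0.03. With the replicate block 2 of the 53 passed, a smaller share than the 10.2% of all probe sets. *sfrp2.S*, a secreted Frizzled-related protein, read 9.53, 10.86, 10.20 and 7.68 in EFTF and 10.18, 11.39, 11.34 and 9.27 in GFP caps, and was lower in EFTF caps in each replicate (change -0.98, limma adjusted p = 0.579, and 0.0379 with the block). *rgma.L*, a BMP co-receptor of the repulsive guidance family, read 5.16, 4.75, 5.77 and 4.49 in EFTF and 4.63, 4.33, 4.47 and 3.46 in GFP caps, higher in each replicate (change 0.82, limma adjusted p = 0.259, and 0.0420 with the block).

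Of the BMP antagonists of the organizer, *nog* and *fst* were at or near the background limit, and the list held no probe set for Chordin. *nog.L*, which encodes Noggin, read 2.51 to 2.81 in EFTF and 2.42 to 2.67 in GFP caps, under the limit on all arrays, and *fst.L*, which encodes Follistatin, read 2.66 to 3.16 and 2.62 to 2.96. The Smads that carry the signal had a median change of 0.22 over 6 probe sets. *smad1.S* on its brighter probe set changed by 0.31 ± 0.16 (SE, limma adjusted p = 0.373). *smad9.S* went the other way, with 5.72, 6.05, 3.99 and 5.16 in EFTF and 5.42, 5.65, 6.09 and 7.57 in GFP caps, again highest on GFP replicate 4 and lowest on EFTF replicate 3 (change -0.96 ± 0.57, SE, limma adjusted p = 0.466, and -0.49 without GFP replicate 4).

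Genes that need BMP signalling in the ventral or non-neural ectoderm of the frog formed a wider list of 30 probe sets, of which 1 rose and 1 fell, or 3 and 3 with the replicate block, against 1.42% and 10.2% of all probe sets in either direction. *foxi1.L*, a forkhead factor of ionocyte precursors, read 5.28 to 6.06 in GFP caps and 4.57, 3.69, 3.01 and 3.59 in EFTF caps, and fell by 2.02 ± 0.33 on the log2 scale (SE, limma adjusted p = 0.0332). This call was lost when any array other than EFTF replicate 1 was left out (limma adjusted p = 0.0671 to 0.111), with the equal-variance test, with replicates 1 to 3 only and with a pseudocount of 16. *dlx6.S*, a distal-less homeobox gene, rose from 3.59, 3.98, 4.24 and 3.94 to 5.71, 5.98, 6.05 and 5.89, by 1.97 ± 0.15 (SE, limma adjusted p = 0.00254). The groups of these genes did not overlap, and both differed in replicate 1 as in the others.

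Of the same list 21 had lower means in EFTF caps, against 45.9% of all probe sets, and the median change was -0.20. Without GFP replicate 4 these were 15 of 30, against 47% of all, and -0.02. *ventx2.1.S*, a homeobox target of BMP in ventral tissue, read 6.45, 3.78, 2.84 and 4.60 in EFTF and 6.31, 5.73, 6.11 and 7.79 in GFP caps, level in replicate 1 and lower in the others (change -2.07 ± 0.76, SE, limma adjusted p = 0.213, and 0.0454 without EFTF replicate 1). Its probe set is marked x, so it shares probes with other transcripts. The other copy, *ventx2.1.L*, changed by -0.77 (limma adjusted p = 0.353). *ventx2.2.L*, *ventx3.2.S* and the brighter probe set of *ventx1.1.L* changed by -0.18, -0.10 and 0.19. *gata2.L* on its brighter probe set read 6.90, 6.16, 5.62 and 6.49 against 6.93, 7.43, 7.201 and 8.34 (change -1.18 ± 0.36, SE, limma adjusted p = 0.140). Its other probe set, with a change of -1.32 (-0.73 without GFP replicate 4), passed with the replicate block (limma adjusted p = 0.0266). *klf17.L*, a Krüppel-like factor, had a higher mean in EFTF caps by 2.06 ± 0.44 (SE, limma adjusted p = 0.0626, and 0.0265 with the block). This probe set is marked x as well, and the other *klf17.L* probe set changed by 2.13 (limma adjusted p = 0.0644).

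Markers of the cell types that the caps could hold moved as follows, with no set test. Over all probe sets 1.42% passed in either direction, 10.2% passed with the replicate block, and 17.3% had an unadjusted p under 0.05. Means were lower in EFTF caps for 45.9% of all probe sets and at least 2-fold lower for 3.84%. Of 22 neural plate probe sets 8 rose, for *sox2.L*, *sox3.S* and both copies of *ncam1*, *cdh2* and *msi1*, and 0 fell. Their summed linear intensity was 5478 to 9726 in EFTF and 1262 to 2878 in GFP caps. *zic1.S*, *zic2.S*, *sox11.S* and *tubb2b.S* differed by 2.62, 3.23, 1.30 and 1.54 and did not pass. Of 6 cement gland probe sets 5 rose, for *pitx1.L* and both copies of *ag1* and *agr2*, with sums of 6169 to 11189 against 1357 to 1953.

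Of 18 epidermis probe sets 0 passed, and 1, for *cdh1.S*, passed with the replicate block, against 1.42% and 10.2% of all probe sets. An unadjusted p under 0.05 was found for 3, against 17.3% of all. Means were lower in EFTF caps for 15, against 45.9% of all, with a median change of -0.41. Their sums were 22999 to 31881 in EFTF and 31897 to 36028 in GFP caps. Of 7 ionocyte probe sets 2 fell, for *foxi1.L* and *ubp1.L* (5 with the block), and all 7 had means at least 2-fold lower, with sums of 130 to 1777 against 3278 to 3941. *ca2.L*, *ca12.L*, *atp6v0d2.L* and *atp6v1b1.L* differed by -2.94, -2.44, -2.69 and -2.94. None of 5 multiciliated cell probe sets passed (all 5 with the block, and 4 at an unadjusted p under 0.05 without it), and all 5 had means at least 2-fold lower, with sums of 107 to 474 against 876 to 1316. *dnai1.L*, *spag6.L*, *tekt2.S* and *ccno.L* differed by -2.20, -2.24, -2.52 and -1.25.

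Of 25 neural plate border and crest probe sets 0 passed, and 1 passed with the block, against 1.42% and 10.2% of all probe sets. Without the block 5 had an unadjusted p under 0.05, against 17.3% of all. The median change was 0.06, with sums of 1701 to 2881 in EFTF and 1971 to 3104 in GFP caps. *zic5.S* differed by 1.01. The border is known to express *msx1* as well, for which the *msx1.L* probe set differed by -1.36. Mesoderm sums were 86.1 to 87.2 against 80.4 to 92.5 over 11 probe sets and endoderm sums 78.1 to 86.4 against 76.0 to 84.2 over 11, none of which passed. Neural plate, cement gland and ionocyte markers thus rose or fell between the same arrays on which the BMP response genes were compared, and their part in the values above was not tested.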

How the data were processed

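The authors preprocessed the scans of 8 Affymetrix arrays with RMA, which corrects background, makes array distributions alike and summarises probes, and deposited the result as linear intensity. No version of RMA is named, and whether a further GeneSpring scaling given in the methods is in these values is not known. The log2 of each intensity was taken without adding a pseudocount, and differences are given as EFTF minus GFP. Of 15611 probe sets 120 Affymetrix controls were left out. The platform annotation gave 1 symbol for 9304 of the other 15491, several for 195 and none for 5992. By gene ID, 9227 of the 9304 matched a RefSeq table of Xenopus_laevis_v10.1, which updated 2 symbols.

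A linear model without covariates was fitted to all 15491 probe sets (limma 3.58.1, R 4.3.3, moderated by eBayes), and two-sided p-values were adjusted over them by Benjamini-Hochberg and called under 0.05. The script was first tested on simulated data. The methods give a 2-fold limit for this comparison and no test. The background limit of an array was the highest of 17 tag control probe sets. Precision is limited by the number of arrays. The series describes 4 biological replicates a group, whereas the methods describe triplicates taken on 3 days from 3 females. No source used here names the day or female behind each array, so p-values measure the spread between these arrays. Deviations from the group means correlated at 0.44, 0.60, 0.22 and 0.64 between same-numbered arrays, so the replicate numbers were taken as pairs and used as a block in an alternative fit. GFP replicate 3 correlated more closely with EFTF replicate 2, at 0.28, than with EFTF replicate 3, so these values do not single out the pair of replicate 3.

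The BMP response genes and all lists were chosen with earlier results of these data known. Of the other lists, called probe sets with 1 symbol and the brightest probe set of a gene with a log2 change of at least 1 are named, and others chosen after their values were seen. The 2 probe sets most like each BMP response gene with a call were also to be named, and there was no such gene. A search of promoters for Smad motifs was not run, as no promoter sequence was used here.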

Additional observations from a re-analysis of the deposited data

Results flagged for a closer look

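A check for single outlying arrays covered 44 groups of 4 arrays from 22 probe sets. These were the BMP response probe sets and those of *szl.L*, *ventx2.1.S*, *gata2.L* (the brighter one), *dlx6.S*, *foxi1.L* and *klf17.L*. Other genes named from the pathway and wider lists, such as *bmp7.2.L*, were not checked. In 3 groups 1 array lay apart. Its distance to the nearest other array took up a larger share of the group's range than Dixon's 95% critical value for 4 samples. Chance gives about 1 such group in 20. On the *smad7.L* probe set ending in S2_a_at GFP replicate 4 read 10.53 with the next GFP array at 7.93, a ratio of 0.969. On *bambi.S* GFP replicate 4 read 4.50 with the next at 3.42, a ratio of 0.893. On *smad6.L* EFTF replicate 2 read 4.11 with the next EFTF array at 3.23, a ratio of 0.865. All 3 are feedback inhibitors, and the other probe sets of *smad7.L* and *bambi* did not pass the limit.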

How the results depend on the processing

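No BMP response probe set was called under any of 17 alternatives. Over all probe sets the alternatives called 0 (without both replicate 4 arrays, with the block) to 1575, or 10.2% (with the replicate block). The equal-variance test called 2 and replicates 1 to 3 only called 18. Where so few passed, 0 of the 16 says nothing particular to them. Of 272 log2 changes of the BMP response probe sets under the alternatives, 256 kept their sign and 16 turned, all in 4 probe sets with a change near 0. The replicate block, replicate 4 as a batch block and the equal-variance test leave each log2 change as in the main fit. So does keeping only probe sets above the background limit on at least 4 arrays. No sign could turn under these, so the 256 overstate how steady the signs were. With replicates 1 to 3 only, the changes are the same with and without the block. *id3.S* was -0.0485 with equal array medians, -0.0223 with replicates 1 to 3 only, with or without the block, and -0.0788 to 0.126 with 1 array left out. *id3* (probe set ending in S1_x_at) was -0.141 to 0.0518 with 1 array left out. *smad6.L* was 0.0689 with replicates 1 to 3 only, with or without the block. *smad7.L* (ending in S1_a_at) was 0.388 there and -0.354 to 0.250 with 1 array left out. *szl.L* was -1.85 to 0.00438 with 1 array left out. The median change of the 16 was -0.56 to -0.21 with 1 array left out and -0.19 with a pseudocount of 16.

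Calls over all probe sets numbered 220 (118 higher), 294 (157 higher) after another quantile normalization and 294 (124 higher) with equal array medians, which moved the split towards lower calls, 2 with the equal-variance test, 18 with replicates 1 to 3 only, 92 with a pseudocount of 16, 25 to 702 with 1 array left out, 1575 with the replicate block and 754 with replicate 4 as a batch block, the last chosen after seeing the data. Without both replicate 4 arrays, with the block, also chosen after seeing the data, the count was 0. The pathway list had 2 calls with the block and 0 otherwise. The wider list had 2 calls, 6 with the block, 5 with replicate 4 as a batch block, 1 with replicates 1 to 3 only or the pseudocount, 0 with the equal-variance test or without both replicate 4 arrays, and 1 to 6 with 1 array left out. *foxi1.L* lost its call without any one array other than EFTF replicate 1. Apart from these counts and the single genes given with the block, the block changed no other call among the named genes of the pathway and wider lists. The causes were not tested. Probe sets near the background limit may have compressed changes, which was not tested.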
